A study of Mus musculus with 16 samples.

Results

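The Foxn3 binding list of embryonic mouse retina held 2794 peaks, which were every peak deposited for the anti-Foxn3 antibody, of 9731 peaks in the 3 lists of the series. Binding was measured by CUT&RUN, in which an antibody on unfixed cells directs micrococcal nuclease to cut out the DNA beside its target. Retinas of CD-1 mice, an outbred strain, were taken at embryonic day 16 and pooled. About 300000 dissociated live cells entered each assay. The anti-Foxn3 group had 4 libraries from 2 experiments. The rabbit IgG group, the control for unspecific cutting, had 4 libraries from the same 2 experiments. All 8 shared strain, stage, tissue and a digestion of 1 h, and none carried a genetic change that the labels name. Peaks for the related factor Foxn4 (2956 peaks, 2 libraries, digested for about 12 h, with a mouse IgG control) served as context. So did peaks for Rfx3 (3981 peaks, 2 libraries), which like Foxn3 had a digestion of 1 h and a rabbit IgG control. Differences between Rfx3 and Foxn4 overlap cannot be told apart from this difference in protocol. Each antibody has a single list, with no values per library, so no value here has a spread over replicates, and no test of a difference was possible. The IgG background was not analysed here, the read depth per library is unknown, and bulk retina does not show which cell type a peak came from.

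Foxn3 is a forkhead transcription factor, a family that binds DNA through a winged helix and whose canonical site is an AT-rich core. Members of the Foxn branch are also known to bind a second, unrelated site. Rfx factors carry a winged helix of another type and bind the X-box, an inverted repeat in the promoters of many cilium genes. The primary cilium is a single antenna-like organelle that relays signals such as Hedgehog in retinal progenitors and later becomes the outer segment of photoreceptors. Motile cilia beat by means of axonemal dynein arms and are known from the airways, the brain ventricles and sperm.

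The sequences that follow are examples of the promoter words described further below, from peaks of high and low score. They come from RefSeq promoter windows of GRCm38.p6, the assembly also called mm10. They are written 5′ to 3′ on the strand of the gene, end before its start of transcription, and lie outside every annotated protein-coding gene. The first 4 are the promoters of Ccdc126 (chr6:49319122-49319221, plus strand, peak score 769), Cfap298 (chr16:90934981-90935080, minus strand, 585), Map9 (chr3:82357908-82358007, plus strand, 307) and Lztfl1 (chr9:123717733-123717832, minus strand, 210). Capitals mark a match to the X-box. Its middle lay 20, 31, 1 and 166 bp from the middle of the peak in these 4 promoters.
Ccdc126: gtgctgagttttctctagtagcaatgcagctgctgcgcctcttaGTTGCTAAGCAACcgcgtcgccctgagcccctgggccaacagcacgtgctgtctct
Cfap298: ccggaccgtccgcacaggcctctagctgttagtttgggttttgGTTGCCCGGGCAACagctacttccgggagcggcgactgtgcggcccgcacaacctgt
Map9: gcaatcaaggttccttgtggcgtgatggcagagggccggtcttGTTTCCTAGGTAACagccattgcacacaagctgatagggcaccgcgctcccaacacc
Lztfl1: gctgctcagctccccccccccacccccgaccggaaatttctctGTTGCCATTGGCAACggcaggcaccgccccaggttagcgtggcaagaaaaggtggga
The promoter of Cacybp (chr1:160212893-160212950, minus strand, peak score 18.7) had a low-scoring peak and is shown because both arms of the repeat were present there too.
Cacybp: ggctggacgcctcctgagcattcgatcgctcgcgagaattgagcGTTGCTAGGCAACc
The promoters of Ciart (chr3:95882293-95882392, minus strand, 74.8) and Mcoln1 (chr8:3500400-3500499, plus strand, 55.1) had Foxn3 peaks that no Rfx3 peak overlapped. Capitals mark an E-box.
Ciart: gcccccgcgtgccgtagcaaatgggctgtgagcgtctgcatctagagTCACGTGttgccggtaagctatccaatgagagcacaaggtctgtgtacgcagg
Mcoln1: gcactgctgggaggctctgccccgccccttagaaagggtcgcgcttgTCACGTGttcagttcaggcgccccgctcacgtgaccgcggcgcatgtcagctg
The promoter of Tspyl2 (chrX:152342604-152342703, minus strand, 7.48) stands for the low end of the list. Capitals mark a CCAAT box with its flank, read from the other strand.
Tspyl2: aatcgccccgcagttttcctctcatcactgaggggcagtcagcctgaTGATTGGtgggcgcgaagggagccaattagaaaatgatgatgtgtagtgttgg
The promoter of Mlf1 (chr3:67373934-67374033, plus strand, 170) is among the few with a canonical forkhead core, in capitals, again read from the other strand. An X-box half-site follows it in lower case.
Mlf1: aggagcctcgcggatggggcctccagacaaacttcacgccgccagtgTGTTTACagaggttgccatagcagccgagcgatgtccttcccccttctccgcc

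The authors' score had a median of 29.9 (quartiles 18.7 and 58.9) and ran from 6.54 to 1444. It was used only to order peaks within the list, since its scaling is not given in the sources used here. The scores were concentrated at the top: the highest decile of peaks held 43% of the summed score, and 374 peaks scored at least 100. Peak width had a median of 384 bp (quartiles 298 and 489 bp), and 18 peaks were wider than 1000 bp. The middle of a peak lay a median of 372 bp from the nearest annotated end of a protein-coding gene, but the upper quartile was 13696 bp. Most peaks thus sat at a gene end and a minority lay far away.

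By position, 1581 peaks (56.6%, 95% Wilson interval 54.7% to 58.4%) had their middle within 1000 bp of a gene end. A further 696 (24.9%) lay inside a gene beyond that distance. Between genes lay 296 peaks (10.6%) at 1000 to 50000 bp from an end and 221 peaks (7.91%) farther than 50000 bp. The last class stood apart from the others. Its median score was 17.8, against 29 to 32.7 in the other 3 classes, and Foxn4 peaks overlapped 65.2% of it, against 37.4% to 39.1%. Wilson intervals here and below cover counting error only, and neighbouring peaks and genes are not independent.

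The genes at the 15 highest-scoring peaks included several for cilia and several for unrelated functions. Gas8, a subunit of the nexin-dynein regulatory complex that links axonemal doublets, had the highest score of the list, 1444, in a peak of 412 bp (chr8:123518576-123518987) whose middle lay 54 bp upstream of its start. The same peak lay within 1000 bp of an end of Dbndd1, so the 2 genes cannot be told apart. Btrc, the F-box protein that targets beta-catenin and Gli proteins for degradation, followed at its end with 1012 (chr19:45363294-45363992). Mok, a kinase of the ciliary MAK family, had 938 (chr12:110840830-110841196). Foxj1, the forkhead factor known as the switch for motile ciliogenesis, had 612 (chr11:116335282-116335679), in a peak whose middle also lay within 1000 bp of an end of Rnf157. Cfap298, needed to assemble dynein arms, had 585 (chr16:90934721-90935403).

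Others of the 15 have no ciliary role in their names. Bicdl1, an adaptor for cytoplasmic dynein, had 1045 and Srf, the serum response factor, had 680. Both peaks lay inside the gene, 4925 and 5188 bp from the nearest end. The rest were at Ccdc126 (769), 1700030J22Rik (805), the RNA polymerase I termination factor Ttf1 (564), the J-domain protein Dnajc16 (560), the exchange factor Spata13 (549), the tRNA-modifying enzyme Qtrt1 (533), Ppp1r32 (667) and the kinase Mast3 (513). An Rfx3 peak overlapped each of the 15, and a Foxn4 peak overlapped 6 of them (Bicdl1, Btrc, 1700030J22Rik, Ccdc126, Dnajc16 and Spata13).

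To show which gene classes the list marks, a gene was called bound where the middle of a peak lay within 1000 bp of either of its annotated ends. Of the 147 genes of the primary cilium list, 72 were bound (49%, 41% to 57%), and of the 109 genes of the motile cilium list 60 were bound (55%, 45.7% to 64.1%). The background was 1930 of 21887 protein-coding genes, or 8.82%. With peaks at or above the median score alone, the background was 4.88%, and 54 primary (36.7%) and 57 motile cilium genes (52.3%) were still bound. The lists differed in how high their peaks stood. The best peak of a bound motile cilium gene had a median percentile of 89.4 in the score order, that of a bound primary cilium gene 74.1, and that of all bound genes 53.8. In the highest decile by score were 28 of the 60 motile and 18 of the 72 primary cilium genes, against 267 of all 1930 bound genes.

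**Figure D1:**
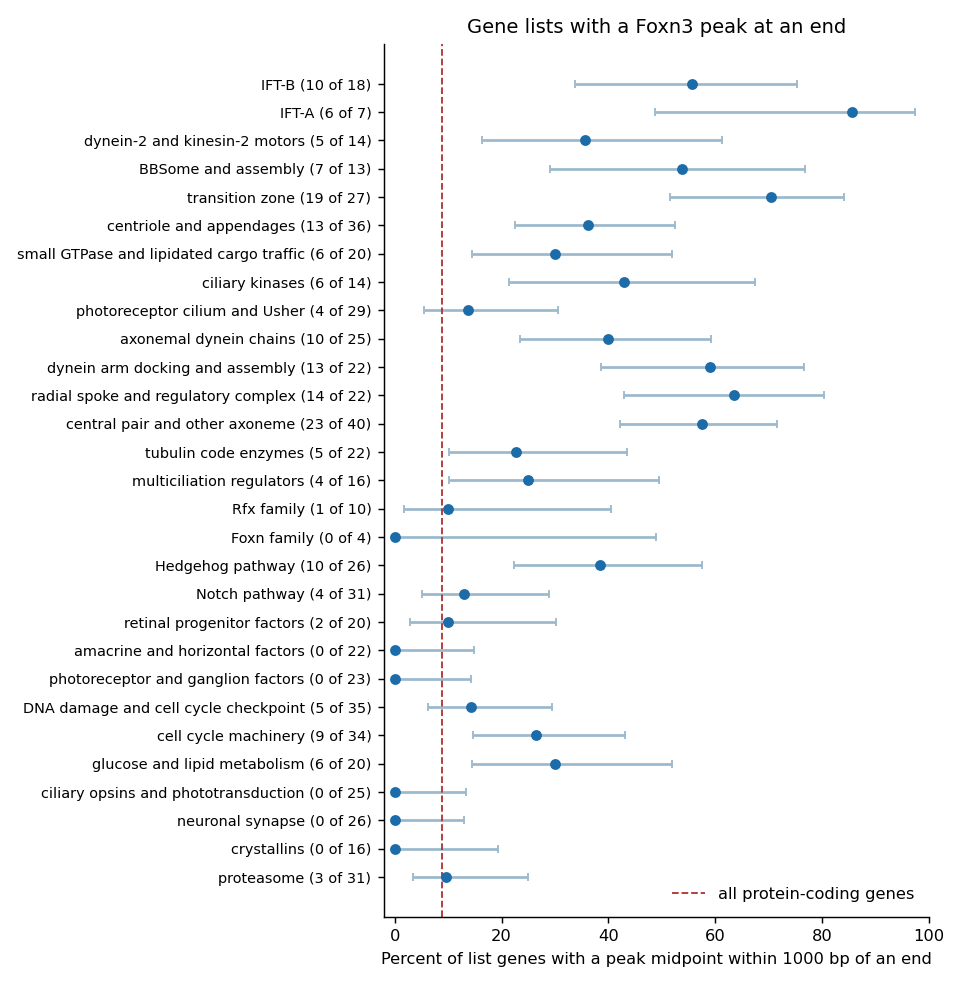
Percent of the genes of each list with a Foxn3 peak within 1000 bp of an end (horizontal axis); points are lists, with the number bound of all list genes in brackets, bars are 95% Wilson intervals and the dashed line is the 8.82% of all protein-coding genes. Lists of cilium parts stand right of the line, with the transition zone at 70.4%, while the synapse, phototransduction, crystallin, amacrine and horizontal, and photoreceptor and ganglion lists stand at 0%.

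Intraflagellar transport (IFT), the traffic of protein trains along the axoneme, was widely marked. The IFT-A list holds the complex that carries cargo back from the tip and the cilium adaptor Tulp3. Of its 7 genes 6 were bound: Wdr19 (score 158), Ift122 (149, also at Mbd4), Ift43 (114) and 3 more, Tulp3 (66.3) among them. Ttc21b was unbound. The IFT-B complex, which carries cargo outward, had 10 of 18 genes bound, led by Ift88 (189), Traf3ip1 (168) and Ift22 (135). The unbound IFT-B genes included Ift20 and Ift46, while Ift74 had a peak (73.8) not at an annotated end but 3 bp from a RefSeq start. Of 14 genes of the motors dynein-2 and kinesin-2, 5 were bound, all of them dynein light, intermediate or light intermediate chains, led by Dynlrb2 (192), Wdr60 (115) and Wdr34 (85). The dynein-2 heavy chain Dync2h1 (147) and the kinesin-2 subunits Kif3a (111) and Kifap3 (17.8) had no peak at an annotated end, but had one 41, 70 and 76 bp from a RefSeq start.

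The transition zone, the gate at the base of the cilium, had the largest bound share among the primary cilium lists of more than 10 genes, 19 of 27 (70.4%, 51.5% to 84.1%). The 3 tectonic genes led it: Tctn2 scored 293 (chr5:124598545-124598842), Tctn3 292 (chr19:40612147-40612517, also at Entpd1) and Tctn1 189 (chr5:122264370-122264613). Of the BBSome, the coat that moves membrane proteins through the cilium, and its assembly factors 7 of 13 genes were bound, with Lztfl1 (210), Bbs7 (179) and Bbs5 (145) highest. The centriole list was less covered and lower in score. There, 13 of 36 genes were bound, with a median percentile of 49. Cep89 (193, also at Faap24), Cep135 (97.2) and Sclt1 (76.6, also at D3Ertd751e) led it. The centriole duplication genes Plk4, Sass6 and Cep152 had no peak at an end, whereas Stil (14), of the same list, had one. Cep41 (220) and Cenpj (127) had no peak at an annotated end, but had one 91 and 127 bp from a RefSeq start.

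Ciliary kinases were few but high. Of 14 genes, 6 were bound, at a median percentile of 97.7, led by Mok (938), the centrosomal kinase Nek2 (501) and Stk36 (389, also at Rnf25). Of these 6 genes, 4 stood in the highest score decile. Small GTPases and their cargo adaptors had 6 of 20 genes bound, with Rabl2 (94.4), Arl13b (91.6) and Arl2bp (57) highest. Genes of the photoreceptor cilium and Usher complexes, which make the light-sensing outer segment, had 4 of 29 bound (13.8%, 5.5% to 30.6%), an interval that holds the background. These were Arl2bp (57), Ttc8 (55.1), Kiz (38.3) and Spata7 (19.6), while the disc proteins Prph2 and Rom1 and the Usher gene Myo7a had no peak at an end.

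Motile cilium genes were bound in each of the axonemal lists. Of the radial spoke and nexin-dynein regulatory complex list 14 of 22 genes were bound, all 14 by a peak of at least the median score, led by Gas8 (1444), Drc3 (269, also at Tom1l2) and Tcte1 (259). The central pair and axoneme list had 23 of 40 genes bound, led by Stk36 (389), Cfap61 (330, also at Crnkl1) and Hydin (277). Of the docking and assembly factors of dynein arms 13 of 22 were bound. Cfap298 (585), Ccdc151 (278, also at Prkcsh) and Dnaaf5 (251, also at Prkar1b) led them. The dynein chains themselves had 10 of 25 bound. The heavy chains Dnah6 (285), Dnah9 (259), Dnah10 (also at Atp6v0a2), Dnah11 and Dnah5 were among these, but Dnah1, Dnah2, Dnah3, Dnah8, Dnah12 and Dnah17 were not.

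Rfx3 peaks overlapped the best peak of 59 of the 60 bound motile cilium genes and 68 of the 72 bound primary cilium genes. Foxn4 peaks overlapped 5 and 18 of these. Among all 1930 bound genes, the counts were 1653 for Rfx3 and 724 for Foxn4. So motile cilium genes were overlapped by Foxn4 in a smaller share of cases than bound genes at large; the difference was not tested. Of the enzymes that modify tubulin, 5 of 22 were bound. Ttll13 (299), Ttll5 (85, also at Erg28) and Agbl4 (50.5) were highest. Of the regulators of multiciliation 4 of 16 were bound: Foxj1 (612), Ccno (107), Rfx2 (27.1) and E2f5 (26.2). The multiciliation regulators Gmnc, Mcidas, Myb and Trp73 had no peak at an end.

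Signalling and cell cycle lists varied in their bound share. In the Hedgehog pathway, whose receptors work in the primary cilium, 10 of 26 genes were bound (38.5%, 22.4% to 57.5%). Btrc (1012) stood far above the next, the cilium adaptors Tulp3 (66.3) and Iqce (51.4). The receptor Ptch1 (49.5) and the effector Gli1 (38.3) had gene-end peaks without an Rfx3 overlap, whereas Shh, Smo, Gli2 and Gli3 had none at an end. In its body and 10 kb on either side, Ptch1 had 4 peaks, scoring up to 77.6, and 2 of these overlapped Rfx3. Of the 34 genes of the cell cycle machinery 9 were bound (26.5%, 14.6% to 43.1%), led by Cdk4 (298), E2f3 (86.9) and Mcm7 (50.5, also at Ap4m1). The DNA damage checkpoint is a process from which Foxn3 took its first name as a checkpoint suppressor. Of its 35 genes 5 were bound (14.3%, 6.26% to 29.4%), an interval that holds the background. These were Brca1 (280, also at Nbr1), Trp53 (74.8, also at Wrap53), Rad9a (69.2), Chek2 (23.4, also at Hscb) and Mdc1 (14). Trp53bp1 (190) had no peak at an annotated end, but had one 60 bp from a RefSeq start. Glucose and lipid genes had 6 of 20 bound, with Fasn (74.8) and Hmgcs1 (47.7) highest, and their median percentile of 60.7 was close to that of all bound genes.

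The bound shares of the retinal cell fate lists could not be told from the 8.82% of all protein-coding genes. Of the amacrine and horizontal cell factors none of 22 was bound, and none of 23 photoreceptor and ganglion cell factors. With no gene bound, the Wilson interval reaches 14.9% and 14.3%, above the background, so these lists are too short to set them below it. Of 20 progenitor factors, Six6 (80.4) and the Notch target Hes1 (13.1) were bound (10%, 2.79% to 30.1%), an interval that holds the background. The Notch list, of which Foxn4 is a known regulator in the retina, had 4 of 31 bound (12.9%, 5.13% to 28.9%), again an interval that holds the background. These were Psenen (32.7, also at U2af1l4), Numb (29.9), Hes1 (13.1) and Adam10 (11.2). The comparison lists together had 3 of 98 genes bound (3.06%, 1.05% to 8.62%). All 3 were proteasome subunits, Psmd13 (150, also at Sirt3), Psma5 (54.2) and Psmb3 (18.7, also at Pcgf2). The proteasome list alone had 3 of 31 genes bound (9.68%, 3.35% to 24.9%), an interval that holds the background. No synaptic, crystallin or phototransduction gene was bound, with Wilson intervals that reach 12.9%, 19.4% and 13.3%. None of these lists taken alone could therefore be set below the background.

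Groups of genes that share a symbol stem were counted in the same way. Of the 14 Ift genes 11 were bound (78.6%), of the 34 Cfap genes 15 (44.1%), of the 38 Cep genes 13 (34.2%) and of the 137 Ccdc genes, which code for coiled-coil proteins, 33 (24.1%, 17.7% to 31.9%). Bound Cfap genes stood high, at a median percentile of 90.6. Groups named for other functions lay on both sides of the background. Of the 69 Rab GTPases 13 were bound (18.8%, 11.4% to 29.6%). The shares were 16.3% (8.51% to 29%) of 49 Nduf genes and 16.1% (8.69% to 27.8%) of 56 ubiquitin-specific proteases. Of 99 Rpl and Rps genes 13.1% (7.84% to 21.2%) were bound. For the Nduf, protease, and Rpl and Rps groups the intervals hold the background. The Nduf stem covers subunits of respiratory complex I and also assembly factors such as Ndufaf7 (86). The Rpl and Rps stems cover cytosolic ribosomal proteins and also the kinase gene Rps6ka5 (42.1). Lower shares were found for 375 solute carriers (4.8%, 3.06% to 7.46%) and 397 Zfp genes (4.53%, 2.89% to 7.05%). The 238 Tmem genes, a stem that some transition zone genes carry, had 18 bound (7.56%, 4.84% to 11.6%). None of 1110 olfactory receptor genes was bound, for which 3 counts of the total are 0.27% and the Wilson interval reaches 0.345%. For the 112 keratin genes, again with none bound, these limits are 2.68% and 3.32%.

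The mix of the list changed with score. Of the 280 peaks in the lowest decile, 106 (37.9%, 32.4% to 43.7%) lay at a gene end, and of the 279 in the highest decile 208 (74.6%, 69.1% to 79.3%). The course between them was uneven: 62.4% in the fourth decile and 48.4% in the seventh. Overlap with Rfx3 was higher at every step, from 49.3% (43.5% to 55.1%) in the lowest decile to all 279 peaks in the highest. Overlap with Foxn4 went down from 68.2% to 23.6% in the eighth decile and stood at 30.8% (25.7% to 36.5%) in the highest. Peaks over 50000 bp from an end made up 33.6% of the lowest decile and 1.43% of the highest. The score of a Foxn3 peak and that of the Rfx3 peak it overlapped were related, with Spearman's rho of 0.73 over 2265 peaks, whereas for Foxn4 rho was -0.057 over 1120 peaks. Both scores of a pair share a genomic site, so these values are descriptions.

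Cilium genes gathered at the top of the score order. Of the gene-end peaks in the highest decile, 45 of 208 (21.6%, 16.6% to 27.7%) lay at a gene of either cilium list, against 2 of 162 (1.23%, 0.339% to 4.39%) in the third decile and 4 of 106 (3.77%) in the lowest. Both cilium lists together hold 254 genes, 1.16% of all protein-coding genes. The lists differed in their course. The share at a primary cilium gene was between 1.23% and 8.65% in every decile. The share at a motile cilium gene was at most 2.22% in each of the lower 7 deciles and then 7.98%, 6.82% and 13.5% (9.48% to 18.8%).

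**Figure D2:**
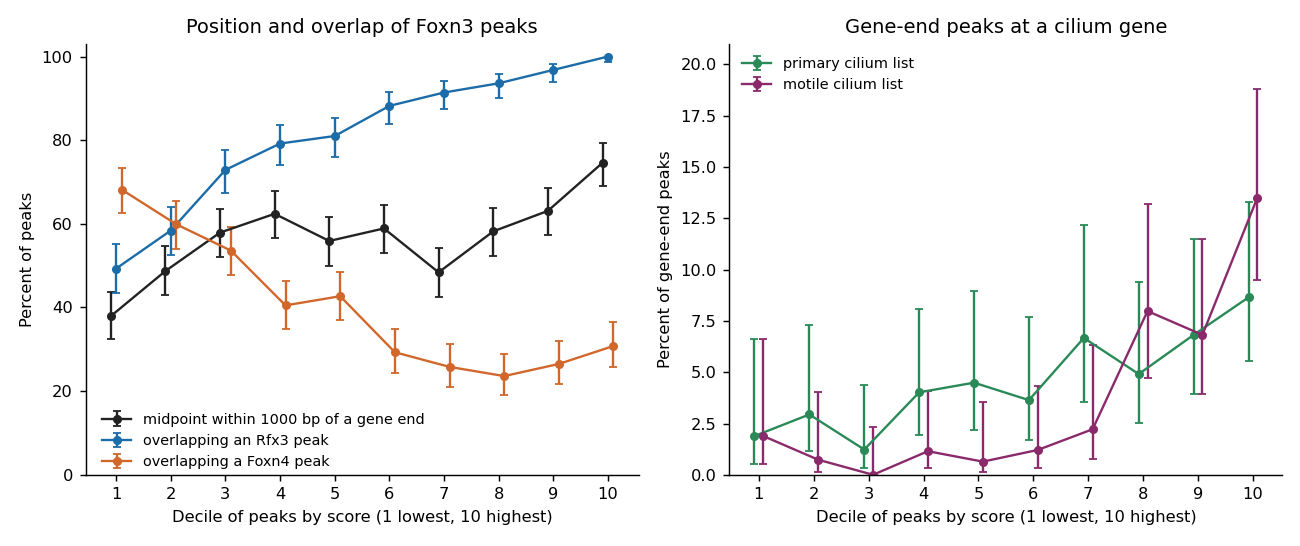
Left, percent of Foxn3 peaks (vertical axis) at a gene end, overlapping an Rfx3 peak and overlapping a Foxn4 peak in each decile of the score order (horizontal axis); right, percent of gene-end peaks at a gene of the primary or motile cilium list; bars are 95% Wilson intervals. Rfx3 overlap runs from 49.3% to 100%, Foxn4 overlap from 68.2% to 30.8%, and the motile share stays at or below 2.22% up to the seventh decile.

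Distance from genes sorted the list in a similar way. Within 100 bp of an end lay 833 peaks, with a median score of 34.6, and farther out, up to 1000 bp, lay 748 peaks, with 30.8. The nearest gene belonged to a cilium list for 9.72% (7.89% to 11.9%) of the first class and 5.35% (3.95% to 7.2%) of the second. At 1000 to 10000 bp, 449 peaks had a median score of 37.4, the highest of the distance classes, and 3.56% had a cilium gene nearest. Beyond 50000 bp the 396 peaks had a median score of 19.6, and 1 of them (0.253%) was nearest to a cilium gene.

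Overlap of the peaks beyond 50000 bp differed with score. Of the 274 with a score below the list median, Foxn4 peaks overlapped 78.5% (73.2% to 82.9%) and Rfx3 peaks 49.3%. Of the 122 at or above it, Foxn4 overlapped 30.3% (22.9% to 39%) and Rfx3 92.6%. The other distance classes differed in the same direction: at 10000 to 50000 bp, Foxn4 overlapped 55% below the median and 18.6% at or above it, and Rfx3 68.1% and 95.5%. The highest-scoring lay between Stk35 and its neighbours (331, chr2:129908742-129909701, 76934 bp from the nearest end), inside Foxn3 itself (231), inside Aff1 (142), near Gm47655 (130) and near Ank3 (119). All 5 overlapped an Rfx3 peak.

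Against RefSeq starts, which the table gives with strand for 17492 of the 21887 genes, 1490 of 2723 peaks had their middle within 1000 bp of a start. Of these, 1187 (79.7%, 77.5% to 81.6%) lay upstream, and the median position was -86 bp (quartiles -156 and -16.2 bp), where negative means upstream. Higher-scoring peaks sat closer to the start. The median position was -67 bp for the 831 peaks at or above the median score and -103 bp for the 659 below it. The ends called bound were mostly starts. Of 1191 bound genes longer than 10 kb with a RefSeq start, 1118 (93.9%) had the peak at a start. Only 34 had it at the end of transcription alone, and for 19 of these the peak lay within 1000 bp of another gene's start.

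**Figure D3:**
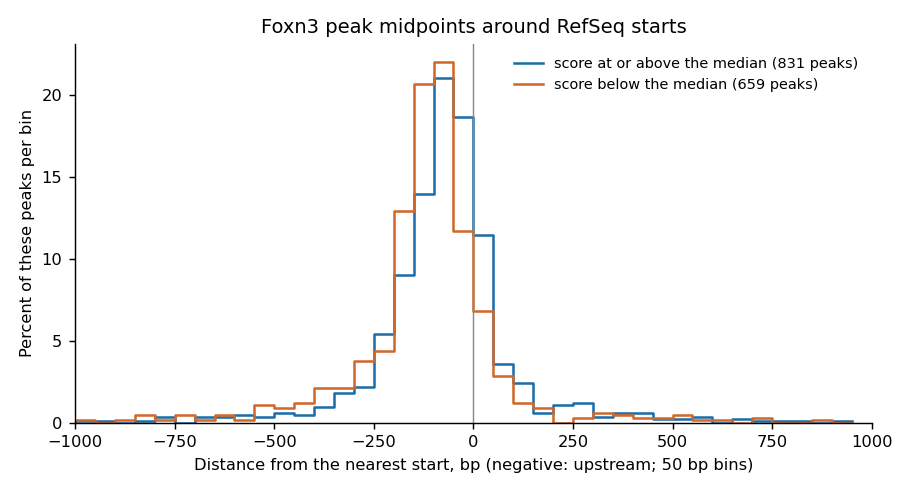
Percent of Foxn3 peaks per 50 bp bin (vertical axis) by distance of the peak's middle from the nearest RefSeq start (horizontal axis, bp, negative upstream), for peaks at or above the median score and below it. Both groups pile up upstream of the start, with medians of -67 and -103 bp.

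Many start peaks lay near a pair of genes. Of the gene-end peaks, 393 of 1581 (24.9%) lay within 1000 bp of an end of more than 1 gene. Of the 225 near starts of 2 or more genes, 211 had a pair that points in opposite directions. For such pairs the list cannot say which gene a peak belongs to. Counting only peaks with a single gene, 54 of 147 primary and 38 of 109 motile cilium genes were bound (36.7% and 34.9%), against 5.33% of all genes.

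Inner starts accounted for some peaks away from gene ends. Of 1169 peaks over 1000 bp from an end, 166 (14.2%) lay within 1000 bp of another annotated start of a gene. In the highest score decile the share was 25 of 71 (35.2%, 25.1% to 46.8%) and in the lowest 15 of 164 (9.15%, 5.62% to 14.5%). Ppp1r32 (667), Mast3 (513), the tropomyosin gene Tpm3 (306), Ubxn6 (278) and the photoreceptor cilium gene Fam161a (261) had the highest scores of this kind. Fam161a therefore counts as unbound in the gene list above although a peak lay 138 bp downstream of one of its starts. Counting annotated ends and RefSeq starts together, 81 of 147 primary (55.1%) and 70 of 109 motile cilium genes (64.2%) were bound, against 9.62% of all genes.

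Overlap with Foxn4 went with peak width. Of the narrowest decile (median 218 bp), 15 of 280 peaks (5.36%, 3.27% to 8.65%) overlapped a Foxn4 peak, and of the widest decile (median 734 bp) 198 of 279 (71%, 65.4% to 76%). Rfx3 overlap differed little, between 78.6% and 88.2%. A wide peak can meet another more easily, so the count was repeated with the middle of the Foxn3 peak inside the Foxn4 peak, which gave 5.36% and 61.3%. Score and width were almost unrelated (Spearman's rho -0.077 over 2794 peaks). In the highest score quartile, Foxn4 overlap went from 3.43% (1.58% to 7.28%) of the narrowest quartile to 52% (45.1% to 58.8%) of the widest, and in the lowest score quartile from 38.6% (28.8% to 49.3%) to 75.4% (69.1% to 80.7%). The longer nuclease digestion of the Foxn4 libraries and the Foxn4 antibody cannot be told apart in these values.

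**Figure D4:**
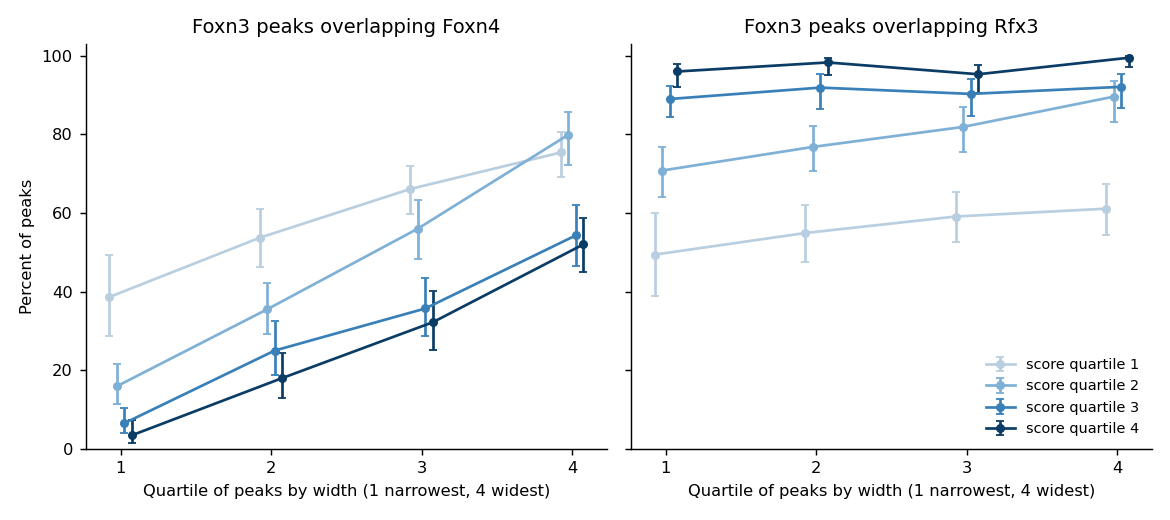
Percent of Foxn3 peaks (vertical axis) overlapping a Foxn4 peak, left, and an Rfx3 peak, right, in each quartile of the width order (horizontal axis), with a line per quartile of the score order; bars are 95% Wilson intervals. Foxn4 overlap climbs with width on every line, from 3.43% to 52% on the highest-scoring, while the Rfx3 lines differ in level by score and run nearly flat in the upper 2 quartiles.

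The share of cilium genes differed between narrow and wide peaks, but not in the same way at every score. The share of gene-end peaks at a cilium gene was 15.1% (10.1% to 22%) in the narrowest decile and 7.59% (4.29% to 13.1%) in the widest, with overlapping intervals. The deciles between them held 4.88% to 10%, without a steady course. In the highest score quartile it was 23.4% (16.5% to 32.1%) in the narrowest width quartile and 12.3% (7.84% to 18.8%) in the widest. In the third score quartile these values were 11.3% and 7.87%, in the second 3.6% and 6.94%, and in the lowest 3.85% and 3.12%. The widest peak of the list, 2571 bp, lay at Gm20783 (score 294, also at LOC108167694). Next came Sirt4, a mitochondrial sirtuin (1612 bp, 21.5), Tex14, a protein of germ cell bridges (1376 bp, 33.6), a site 9211 bp from Rdm1 (1291 bp, 29.9) and Fasn, the fatty acid synthase (1224 bp, 74.8). Each of these 5 overlapped both other lists, and the last 4 had scores far below those of the top peaks.

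Sharing with the other lists divided the cilium genes. Of 812 gene-end peaks that overlapped Rfx3 alone, 107 (13.2%, 11% to 15.7%) lay at a cilium gene, 56 of them at a motile one. Of 536 that overlapped both lists, 24 (4.48%, 3.03% to 6.58%) did, 5 of them at a motile one. The 237 peaks that overlapped Foxn4 alone were the least promoter-bound: 23.2% lay at a gene end and 48.1% over 50000 bp from one. The 292 peaks that overlapped neither had a median score of 21.5, and 61% lay at a gene end. The highest of these were inside Prdm10 at a RefSeq start (109) and at Ap5z1 (95.3), at the divergent pair Apex1, a DNA repair endonuclease, and Osgep (93.4), at Cdkl3 and Ube2b (90.6) and at the growth-control GTPase Rheb (88.8).

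Promoter words changed along the same axes. The X-box was searched as GTTNCC, 0 to 3 free bases and GGNAAC. A wider form, GTTGC, 3 to 5 free bases and GCAAC, and the half-site GTTGCTA, the E-box CACGTGA, the flanked box CCAATCA and the GC box CCCGCCC were added after word counts had been seen. All words were searched on both strands of windows from 250 bases before to 50 bases after a start. GTTGCCA can be part of either X-box form, GTTGCTA of the wider form, and CCAATCA contains the CCAAT box. Of all 21238 windows, 162 (0.763%) held the X-box, and of the 1749 windows that a Foxn3 peak touched 71 (4.06%, 3.23% to 5.09%) did. A match is a match of letters and not a measured binding site.

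With score, the X-box share went from 0.291% (0.0513% to 1.63%) of windows in the lowest quartile through 1.99% and 4.21% to 8.19% (6.14% to 10.9%) in the highest. The half-site GTTGCCA went from 3.78% to 21.7% and GTTGCTA from 4.65% to 21.3%, against 4.18% and 3.69% of all windows. So the lowest quartile was at the level of all promoters for all 3 words. Distances from the middle of the peak were taken only in windows that held it, so the window size bounds them. X-box matches lay a median of 37 bp away over 67 matches, and the wider form 29 bp over 51 matches. For CCAATCA and the GC box the medians were 58 and 72.5 bp. The Cfap298, Map9 and Lztfl1 sequences printed above hold the strict form, and those of Ccdc126 and Cacybp the wider form only.

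CCAAT boxes and GC boxes went the other way. CCAATCA, the box of the factor NF-Y with its flank, was in 9.08% of all windows. It was in 27.9% (23.4% to 32.9%) of those in the lowest score quartile, 35% in the second and 16% (13.1% to 19.4%) in the highest. The GC box CCCGCCC was in 63.4%, 56.6%, 55.4% and 43.4% of windows from the lowest to the highest quartile, against 33.9% of all windows. The promoter of Tspyl2 printed above belongs to the low end, at a percentile of 0.215 in the score order.

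Base composition moved with these values. Windows with a Foxn3 peak had a median of 22 CpG dinucleotides and 61.3% G and C, against 13 and 56.3% in all windows. Among the 5695 windows without a Foxn3 peak but with at least that median of CpG, the GC box was in 64.4%, the Ets core CCGGAAG in 19.5% and the word GACGC, the second Foxn site, in 61.6%. With a peak these shares were 53.7%, 20.9% and 57.4%. The windows without a peak were the richer, with a median of 30 CpG and 68.7% G and C, so the groups were not matched in composition. The X-box (0.334%), GTTGCCA (2.12%), GTTGCTA (1.6%), CCAATCA (6.27%) and CACGTGA (5.83%) were rarer there than in windows with a peak, where they were in 4.06%, 12.6%, 11.9%, 24.7% and 10.5%. GACGC was in 33.4% of all windows. In the score quartiles, from lowest to highest, GACGC was in 56.4%, 49.8%, 57.5% and 64.6% of windows.

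The canonical forkhead core GTAAACA was not more frequent under Foxn3 peaks. It was in 39 of 1749 windows with a peak (2.23%, 1.64% to 3.03%) and in 3% of all windows, and in 2.03% to 2.48% in each score quartile. The CpG-rich windows without a peak held it in 1.76%. In windows that held the middle of the peak, its matches lay a median of 85 bp from that point, over 29 matches. A window without a match says nothing of sites elsewhere, and peaks outside promoter windows were not searched, since no genome sequence was used here.

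**Figure D5:**
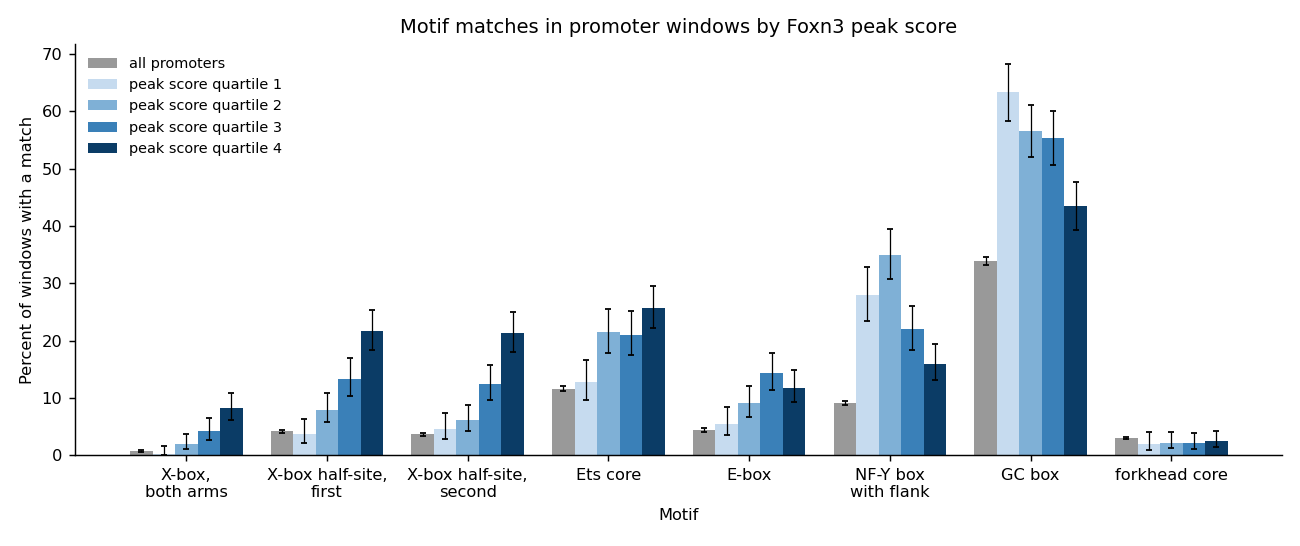
Percent of promoter windows with a match to each motif (vertical axis) for all promoters and for windows touched by a Foxn3 peak of each score quartile; bars are 95% Wilson intervals. The first half-site is GTTGCCA and the second GTTGCTA. X-box words are more frequent at higher scores, the NF-Y and GC boxes are most frequent in the lower quartiles, and the forkhead core stays at or below the 3% of all promoters.

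Promoters whose peak met no Rfx3 peak held other words. None of 230 such windows held the X-box in either form, which the Wilson interval limits to 1.64%, and half-sites were in 4.78% and 3.91%. The E-box CACGTGA was in 59 of them (25.7%, 20.4% to 31.7%), against 4.39% of all windows and 8.15% to 8.18% of windows whose peak overlapped Rfx3. This word was added because it was among those most in excess in the windows without Rfx3 overlap, so its share there is a description only. Ciart, a circadian repressor, and Mcoln1, a lysosomal calcium channel, were among these promoters, as printed above. Where the peak overlapped both Rfx3 and Foxn4, CCAATCA was in 33% (29.5% to 36.8%) and the X-box in 0.943% (0.433% to 2.04%). Where it overlapped Rfx3 alone, these were 16.8% and 7.36% (5.82% to 9.27%).

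Cilium genes did not differ from others of like score in the strict X-box beyond the counting intervals. In the highest score quartile it was in 9 of 88 cilium gene windows (10.2%, 5.47% to 18.3%) and in 34 of 437 others (7.78%, 5.62% to 10.7%). GTTGCTA was in 30.7% (22% to 41%) and 19.5% (16% to 23.4%) of these. The wider form was in 12.5% (7.13% to 21%) and 5.95% (4.09% to 8.57%), again with overlapping intervals. Over all windows with a peak, of any score, the wider form was in 9.16% (5.32% to 15.3%) of cilium gene windows. In the other windows with a peak it was in 2.47% (1.82% to 3.35%). Of 126 windows of cilium genes without a Foxn3 peak, 5 held the strict X-box (3.97%, 1.71% to 8.95%), against 0.467% of all windows without a peak.

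The loci of the factors themselves held peaks mostly away from their annotated ends. Foxn3 had 5 peaks, all inside the gene and all overlapping Rfx3, the highest with a score of 423 at chr12:99220339-99220762. Rfx2 had 3, up to 353 at chr17:56814349-56814906, and Rfx1 had 2, up to 198. Rfx3 (57), Rfx5 (33.6), Foxn2 (43) and Foxn4 (12.1) had 1 each. Of these peaks, only that of 27.1 at Rfx2 lay within 1000 bp of an end of the factor's own gene. Those of 198 at Rfx1, 57 at Rfx3 and 33.6 at Rfx5 lay 177, 35 and 187 bp from a RefSeq start. Rfx4, Rfx6, Rfx7, Rfx8, Rfxap, Rfxank and Foxn1 had no peak within 10 kb. The gene with the most peaks in its body and 10 kb on either side was Tex14, with 6, all overlapping Foxn4 and scoring 27.1 to 54.2. Foxn3 came next, followed by Ap2a1, Ctdnep1, Med25, Msi2, Ptch1 and Zdhhc1 with 4 each, of which Ap2a1 and Med25 are neighbours and share peaks.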

How the data were processed

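The 3 deposited peak lists, 1 per antibody, give positions in mm10, per the file headers, and a score for each peak. The score is the authors' own value, its scaling is not given in the sources used here, and it was used only within a list. The submitters' processing notes name cutadapt, Bowtie2, UMI-tools, bedtools and SEACR, with no role or version. Which of the 4 anti-Foxn3 and 4 rabbit IgG libraries entered the Foxn3 list, and how, is not given either. Depth per library is unknown, so Wilson intervals (95%) cover counting error only.

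Peaks were set against 21887 protein-coding genes and 21238 distinct promoter windows of RefSeq GRCm38.p6, with Python 3.11.15, pandas 2.3.3, NumPy 2.4.6 and SciPy 1.17.1, in code tested on simulated data. The gene table holds both ends of a gene without strand or exons, so a gene was bound where a peak midpoint lay within 1000 bp of either end. Promoter windows covered 20 chromosomes, with none on chromosome 18, and gave starts for 17492 genes, so 2723 of 2794 peaks were set against starts. Peaks overlapped where they shared at least 1 bp. For deciles and quartiles, tied peaks kept the order of the file. A percentile is the percent of peaks with a lower score, so tied peaks share it. Of the list symbols, Cfap418 and Rsph10b matched no gene in the table. Members and gene lists were chosen with earlier results of these data known. Genes were named by a rule: those at the 15 highest peaks, the 3 highest of each list, the 5 widest, far and unshared peaks, the 5 genes with most peaks and those tied with them, and all Foxn and Rfx genes. Others were named after their values were seen, among them unbound list members, inner starts and the printed promoters. Distances of 500 and 5000 bp, other overlaps, peaks at or above the median score and other motif forms were tried as alternatives. Some genes that the rule would name are not reported here.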

Additional observations from a re-analysis of the deposited data

How the results depend on the processing

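Of 46 values recomputed under alternatives, 23 stayed within the 95% interval of the value reported and 23 did not. With a distance of 500 bp, 8.06% of all genes were bound. With 5000 bp, the values were 11.6% of all, 67% of motile cilium and 9.18% of comparison genes, and 86.4% and 46.4% of peaks of the highest and lowest score decile lay at a gene end. With peaks at or above the median score, they were 4.88% of all and 36.7% of primary cilium genes, 94% for Rfx3 overlap, 27.5% for Foxn4 overlap and 6.56% for the X-box. Against RefSeq starts alone, 9.67% of all and 65.2% of motile cilium genes were bound. With gene ends and RefSeq starts together, added after seeing the data, these were 9.62% and 64.2%. With peaks near a single gene, an alternative chosen after seeing the data, the values were 5.33% of all, 36.7% of primary, 34.9% of motile cilium and 1.02% of comparison genes. With at least 50% of the Foxn3 peak covered, Foxn4 overlap was 35.9%, and with its midpoint inside the Foxn4 peak 38.1%. The half-site was in 12.6% of bound promoters, and both arms with a free middle, also added after seeing the data, in 2.97%. The cause of these shifts was not tested. Under every setting run for the gene lists, the bound share was at least 4.81 times that of all genes for primary and 5.78 times for motile cilium genes, and 0.793 times or less for the comparison genes. No paired analysis was possible because the lists hold no value per library. Depth, replicates and the IgG signal limit every value here.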

Other observations

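Outside protein-coding gene ends, 149 peaks lay within 1000 bp of an end of 155 non-coding genes, of which 122 were lncRNA genes and 22 snRNA genes. Near microRNA genes, the highest peak scored 680 and lay inside Srf beside Mir6976. Mir92b had a peak of 217 at 308 bp, which also lay at Thbs3. Mir210, a microRNA known for its induction by low oxygen, had a peak of 42.1 at 362 bp with no protein-coding gene end within 1000 bp. Mir22hg, the host gene of a microRNA, had a peak of 47.7 at 73 bp.

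Chromosomes differed in the share of protein-coding genes bound. On chromosome 19 it was 13.6%, on chromosome 12 12.1% and on chromosome X 3%, where 29 of 966 genes were bound. None of 256 genes on chromosome Y was bound. Of all genes with at least 1 peak in the body or within 10 kb, 2815 had 1 peak, 441 had 2, 69 had 3 and 8 had 4 or more.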
